A study of Mus musculus with 8 samples.

Results

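Kinesin transcripts were measured in the testis of mice aged 27 days, in 4 controls labelled wild type and 4 mutants labelled Brwd1-/-. Brwd1 encodes a protein with bromodomains and WD repeats. Members were all genes whose symbol is Kif followed by a digit, read from probe sets assigned to a single gene symbol, with the probe set of highest mean over the 8 arrays standing for the gene. The rule found 37 of 18193 genes, and these were measured by 99 probe sets. After a filter on dim probe sets, 33 of the 37 were tested among 13787 genes. The controls are wild type by their titles and Brwd1+/- by their genotype entry, so they may carry 1 mutant copy. The text calls them wild type. Each mouse gave 1 array of RNA labelled testis, so a value averages over all cells of the sample. In each genotype, marker genes of the epididymis were bright in the mice numbered replicates 3 and 4. They were dim in those numbered 1 and 2, as given below. The nature of the Brwd1 mutation is not given in the labels. Mice of this age have spermatids midway through development, by the series' own account of its design, and the question was how expression in spermatids differs in the mutant.

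Kinesins are motor proteins that use ATP to walk along microtubules or to take their ends apart. One set works in dividing cells, where it builds the bipolar spindle, moves chromosomes and completes cytokinesis, and another carries vesicles, organelles and RNA through the cytoplasm. In the testis both kinds are needed: spermatogonia and spermatocytes divide, and spermatids then build a flagellum and a microtubule manchette that shapes the nucleus. The 37 members were placed in roles by general knowledge of the family: 13 spindle and cytokinesis kinesins, 15 transport kinesins, 5 kinesins of the cilium and axoneme, and 4 others.

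Promoter letters are shown first, because the spindle and transport kinesins differed in a motif of cell cycle genes. The motif is the cell cycle genes homology region, CHR, a short element near the start of many genes that are switched on before cell division. RefSeq windows of 300 bases, 250 before and 50 after an annotated start (assembly GRCm38.p6), held 31 of the 37 members in 35 windows. The letters TTTGAA or TTCGAA were searched on both strands, so that TTCAAA is the first of them read on the other strand. They occurred in 9 of 13 windows of spindle kinesins (69.2%) and in 1 of 13 windows of transport kinesins (7.69%), beside 6316 of all 32851 windows (19.2%). Within 30 bases of the start the letters occurred in 7 spindle windows (53.8%) and in 0 transport windows, beside 3.45% of all windows. They also stood there in 1 of 6 cilium windows (16.7%, Kif24) and in 1 of 3 windows of the other members (33.3%, Kif26b). The 7 spindle stretches are printed with that of Kif1a, the transport kinesin with a match, 5′ to 3′ on the gene's strand. Each run is 30 bases and capitals mark the motif.
Kif4: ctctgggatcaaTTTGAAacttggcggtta
Kif11: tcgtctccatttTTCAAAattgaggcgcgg
Kif15: tggggcgccaaaTTCAAAtctgcggccatc
Kif18b: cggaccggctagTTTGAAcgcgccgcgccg
Kif20b: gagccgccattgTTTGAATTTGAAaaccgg
Kif22: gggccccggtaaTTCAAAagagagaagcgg
Kif23: ctgattggcctgTTTGAAatgcgccgggcg
Kif1a: tttgacagcctcTTTGAAcattgctcctaa
These stretches are Kif4 at chrX:100626072-100626101 on the plus strand, Kif11 at chr19:37376351-37376380 on the plus strand, Kif15 at chr9:122951050-122951079 on the plus strand, Kif18b at chr11:102925104-102925133 on the minus strand, Kif20b at chr19:34922353-34922382 on the plus strand, Kif22 at chr7:127042420-127042449 on the minus strand, Kif23 at chr9:61946780-61946809 on the minus strand, and Kif1a at chr1:93082507-93082536 on the minus strand. In Kif20b a pair of copies stood directly side by side. The match of Kif1a, in the window of an alternative start, began 44 bases before it. Matches farther out than 30 bases were also found in the spindle kinesins Kif14 and Kif2c and in the cilium kinesin Kif27. The spindle kinesins Kif2a, Kif2b and Kif18a had none in their windows.

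**Figure D1:**
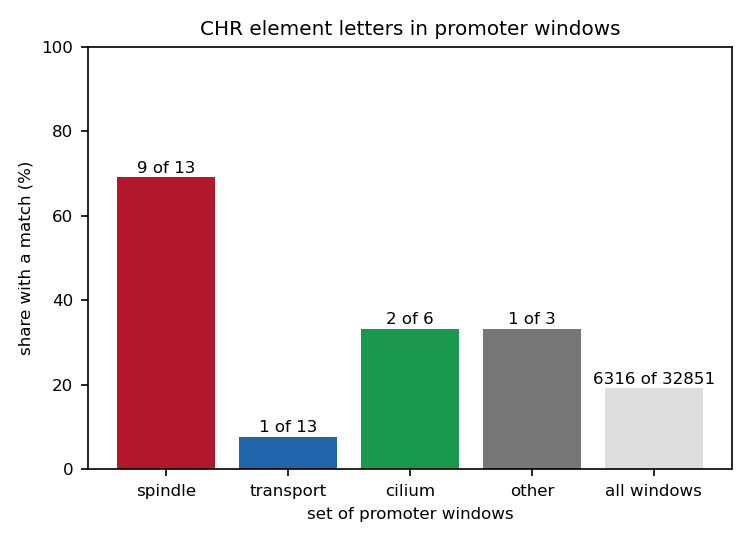
Share of promoter windows (y axis, %) that hold TTTGAA or TTCGAA on either strand, by set of windows (x axis); the counts stand over the bars. Spindle windows reach 69.2% (9 of 13), transport windows 7.69% (1 of 13) and all windows 19.2%.

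Other motifs did not divide the roles in the same way. CCAAT on both strands was in 7 of 13 spindle windows (53.8%), 4 of 13 transport windows (30.8%) and 37.4% of all windows. GGGCGG, the GC box, was in 61.5% of spindle windows, 76.9% of transport windows and 35.7% of all. TGACG, the core of the element to which the spermatid factor CREM and its relatives bind, was in 46.2%, 61.5% and 20.8%. A match describes letters and shows no binding.

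The 3 members of the kinesin-13 subfamily, Kif2a, Kif2b and Kif2c, take microtubule ends apart instead of walking along them. Their promoters are printed because 2 of them, Kif2b and Kif2c, had the largest differences between genotypes among the spindle kinesins, while Kif2a differed little. Each run is the 250 bases before the start, and capitals mark the CHR letters, the CCAAT box, the TGACG core and the GC box on either strand (for Kif2a, 1 of its 2 windows).
Kif2b: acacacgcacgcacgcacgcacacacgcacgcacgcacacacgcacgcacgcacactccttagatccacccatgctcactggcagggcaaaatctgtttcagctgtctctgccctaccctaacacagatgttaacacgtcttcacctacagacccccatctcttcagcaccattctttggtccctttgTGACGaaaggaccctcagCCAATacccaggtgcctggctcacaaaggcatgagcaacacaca
Kif2c: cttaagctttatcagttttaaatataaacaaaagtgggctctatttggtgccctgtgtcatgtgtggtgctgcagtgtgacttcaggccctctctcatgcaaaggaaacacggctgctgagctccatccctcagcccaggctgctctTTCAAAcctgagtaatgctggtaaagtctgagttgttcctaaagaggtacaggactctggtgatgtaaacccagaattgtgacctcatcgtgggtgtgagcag
Kif2a: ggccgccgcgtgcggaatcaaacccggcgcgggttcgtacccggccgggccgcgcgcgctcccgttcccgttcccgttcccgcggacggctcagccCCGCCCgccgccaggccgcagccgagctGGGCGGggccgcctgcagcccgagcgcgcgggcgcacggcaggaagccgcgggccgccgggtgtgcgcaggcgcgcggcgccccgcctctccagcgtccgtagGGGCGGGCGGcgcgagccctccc
The runs are chr11:91577556-91577805 for Kif2b, chr4:117178773-117179022 for Kif2c and chr13:107022356-107022605 for Kif2a, all on the minus strand. GC made up 55.2% of the Kif2b run, 47.6% of the Kif2c run and 82.8% of the Kif2a run, where the median of all windows was 52.4%. Kif2b held 1 TGACG and 1 CCAAT, Kif2c held a CHR match that begins 103 bases before the start, and Kif2a held 4 GC box matches, of which a pair overlap.

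No kinesin passed an adjusted p of 0.05 between genotypes without a block (limma, 33 tested), where 0.283% of all genes passed (0.268% lower and 0.0145% higher). At an unadjusted p under 0.05 there were 5 members, 4 lower in mutants (Kif2b, Kif2c, Kif1a, Kif17) and 1 higher (Kif26b). They made up 15.2% of the members, beside 9.56% of all genes (6.96% lower and 2.6% higher). In 4 members every mutant value lay below every wild-type value (12.1%, beside 5.26% of all genes), namely Kif2b, Kif2c, Kif2a and Kif1a. Kif1a, which stands in both counts of lower members, was kept by the filter through its wild-type values. Its mutant mean of 48.5 lay below the filter at 63.1. In 1 member, Kif21b, every mutant value lay above (3.03%, beside 2.53%). With the replicate number as a block 1 member passed, Kif2c, lower in mutants (3.03%, beside 3.12% of all genes called lower, 0.326% called higher and 3.45% in either direction). The count was also 1, again Kif2c, with a block that sets replicates 1 and 2 apart from replicates 3 and 4, called the split below (beside 2.16% of genes called lower, 0.471% higher and 2.63% in either direction). These shares of called members lie near those of all genes.

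**Figure D2:**
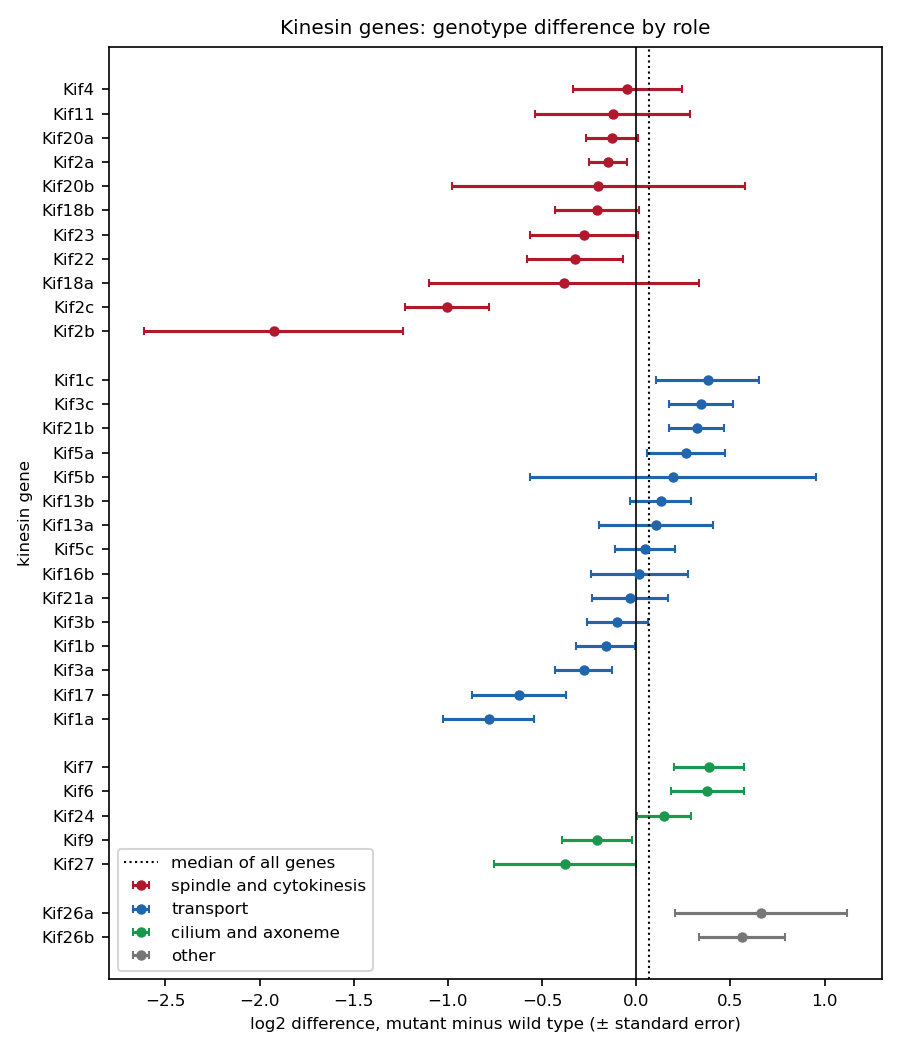
Log2 difference of mutant minus wild type (x axis, bars ± 1 standard error of the limma fit) for the 33 kinesin genes tested (y axis), grouped by role; the dotted line is the median of all genes, 0.07. All 11 spindle kinesins lie left of 0, with Kif2b at -1.93 and Kif2c at -1.005, and transport kinesins lie on both sides.

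The spindle kinesins tested lay on the lower side. All 11 tested had a negative log2 difference, with a median of -0.21 and a range of -1.93 to -0.05, where 37.2% of all genes were negative and the median of all genes was 0.07. The sign was negative in 11 of 11 with quantile normalization and with each array centred on its median. Within replicates 1 and 2 it was negative in 11, within replicates 3 and 4 in 10. Without mutant replicate 1 it was negative in 8 of 11, with Kif18a, Kif20b and Kif4 positive and a median of -0.07; with the split block as well it was negative in 10, with Kif20b positive and a median of -0.15. Without Kif2b and Kif2c the median was -0.20. Apart from Kif2b and Kif2c, no spindle kinesin reached an unadjusted p of 0.05. The mean of the 11 in each mouse had an SD of 0.36 log2 units between mice of a genotype. That spread is of a mean in single mice and includes the split. It is not an error of the median difference of -0.21, which was not tested. The 11 genes were read in the same 8 mice, so their signs are not independent of each other.

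Kif2b, which at kinetochores helps to free wrongly attached microtubules, had the largest difference of any kinesin. Wild-type replicates 1 to 4 read 3113, 3758, 3265 and 2027, and mutant replicates 1 to 4 read 133, 1532, 1167 and 1380.2, in intensity units. All 4 mutants lay below all 4 wild types, and mutant replicate 1 lay far below the other mutants. The means were 3041 ± 729.9 and 1053 ± 631 (SD, n = 4 each). On the scale of the test, log2(value + 16), the difference was -1.93 (standard error 0.69; limma, adjusted p = 0.346), which is 3.80-fold lower between means of logs, not between the linear means. The adjusted p was 0.115 with the replicate block and 0.172 with the split block. Without mutant replicate 1 the log2 difference was -1.13 (limma, adjusted p = 0.0596), and with the split block it was then -1.07 with an adjusted p of 0.0045 (limma). That fit called 2 members, Kif2b and Kif2c, both lower (6.06%, beside 4.01% of all genes called lower and 4.57% in either direction). Replicates 1 and 2 alone gave -2.84 in log2 units, and replicates 3 and 4 alone gave -1.01. The gene had 1 probe set.

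Kif2c, also known as MCAK, corrects attachments at the centromere. It read 1712, 2457, 1919 and 1229.6 in wild-type replicates 1 to 4 and 790.5, 1149.7, 759.7 and 855 in mutants. The highest mutant lay just below the lowest wild type, and mutant replicate 1 was not extreme. The means were 1829 ± 508 and 889 ± 178 (SD, n = 4 each), or -1.005 (standard error 0.23) in log2 units. The adjusted p was 0.101 with no block, 0.0214 under the replicate block and 0.0344 under the split block (limma). Replicates 1 and 2 alone gave -1.09, and replicates 3 and 4 alone gave -0.92. The other kept probe sets of Kif2c did not all show this difference: their log2 differences were -0.72, -0.09 and 0.02. Fitted over single probe sets, these had adjusted p of 0.162, 0.877 and 0.958 under the replicate block, where the representing probe set had 0.0174 (limma). The log2 difference of the mean of its probe sets was -0.45.

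Kif2a, which works at spindle poles and in neurons, read 2084, 2333, 2195 and 2267 in wild-type replicates 1 to 4 and 1979, 1957, 2014 and 2028 in mutants. The groups did not overlap, but the step between them was small. The means were 2219.8 ± 107 and 1995 ± 32.1 (SD, n = 4 each), a log2 difference of -0.15 (limma, adjusted p = 0.815). Its 3 other kept probe sets overlapped between genotypes and had log2 differences of -0.13, -0.05 and -0.02.

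The other spindle kinesins had overlapping groups. The plus-end motor Kif18a, which aligns chromosomes, had a log2 difference of -0.38, and Kif22, a chromokinesin that pushes chromosome arms outward, -0.33. Kif23, the motor of centralspindlin, had -0.28, and Kif18b, which shortens astral microtubules, -0.21. Kif20b and Kif20a, both needed for cytokinesis, had -0.20 and -0.13, Kif11, the motor that pushes spindle poles apart, -0.13, and the chromokinesin Kif4 -0.05. Kif14 and Kif15 were too dim to be tested, with means of 22.1 and 15.5 in wild type, where the filter lay at 63.1.

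**Figure D3:**
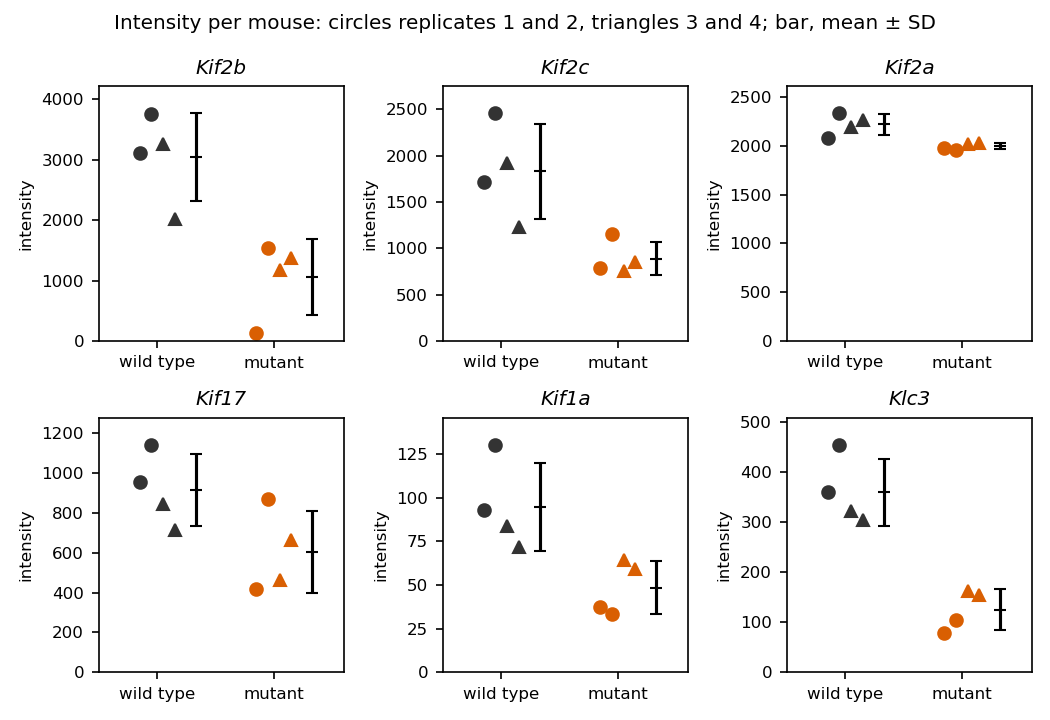
Intensity in each mouse (y axis, from 0) by genotype (x axis) for the 3 kinesin-13 genes, 2 transport kinesins and the light chain Klc3; circles are replicates 1 and 2, triangles replicates 3 and 4, and the bar is the mean ± SD of 4 mice. Mutants lie below wild types without overlap in Kif2b, Kif2c, Kif2a, Kif1a and Klc3, and the groups of Kif17 overlap.

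The transport kinesins were divided in sign. All 15 were tested, 6 with a negative and 9 with a positive log2 difference, and the median was 0.04 (7 negative with each array centred on its median). The spindle median minus the transport median was -0.25, with -0.27 from replicates 1 and 2 alone and -0.22 from replicates 3 and 4 alone. No test was made of this gap, since the genes of a role are not replicates of a condition. No transport kinesin passed the test without a block or with either block.

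Kif1a, a carrier of synaptic vesicle precursors in neurons, had the largest difference among them and was dim. It read 92.7, 130.1, 84.0 and 71.6 in wild-type replicates 1 to 4 and 37.2, 33.6, 64.02 and 59.0 in mutants, without overlap. The means were 94.6 ± 25.2 and 48.5 ± 15.3 (SD, n = 4 each), a log2 difference of -0.78 (limma, adjusted p = 0.232). Replicates 1 and 2 alone gave -1.29, and replicates 3 and 4 alone gave -0.27. The mutant mean lay below the filter at 63.1, so the gene was kept through its wild-type values. Its other probe set was too dim to be kept and did not show this difference. That probe set had means of 56.6 in wild type and 58.8 in mutants, a log2 difference of 0.02, with overlapping groups.

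Kif17 is known in male germ cells for a testis form that moves the CREM coactivator ACT out of the nucleus. Its representing probe set read 952, 1140.3, 846 and 713 in wild-type replicates 1 to 4 and 419, 871, 463 and 663 in mutants. The groups overlapped because mutant replicate 2 lay above a pair of wild types. The means were 913 ± 180.3 and 604 ± 207 (SD, n = 4 each), a log2 difference of -0.62 (limma, adjusted p = 0.445). Its 2 other probe sets had larger negative differences, -1.001 and -1.43. The last of these read 217, 327, 272 and 189.6 in wild type and 21.7, 186, 88.0 and 97.8 in mutants, with no overlap. Fitted over single probe sets, it had an adjusted p of 0.0492 with the replicate block, 0.150 with the split block and 0.328 without a block (limma).

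Kif21b, a motor of dendrites and immune cells that also slows microtubule growth, was the kinesin whose mutants all lay above the wild types. It read 443, 568, 509 and 628 in wild-type replicates 1 to 4 and 660.2, 745, 637 and 642 in mutants, a narrow gap. The means were 537 ± 79.1 and 671 ± 50.6 (SD, n = 4 each), a log2 difference of 0.32 (limma, adjusted p = 0.547).

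The remaining transport kinesins had log2 differences between -0.28 (Kif3a) and 0.38 (Kif1c), and their groups overlapped at the representing probe sets. Another kept probe set of Kif3a had every mutant below every wild type, with means of 1257 and 989 and a log2 difference of -0.35. It was not called in any fit over single probe sets. The rest of its kept probe sets overlapped, with -0.04 and 0.19. Kif3a and Kif3b, the motor pair of intraflagellar transport that builds cilia and sperm tails, had -0.28 and -0.10, while their relative Kif3c had 0.34. The conventional kinesin heavy chains Kif5a, Kif5b and Kif5c had 0.26, 0.19 and 0.04. Kif1b, a carrier of mitochondria and vesicles, had -0.16, and Kif16b, a motor of early endosomes, 0.02. Kif13a, Kif13b and Kif21a had 0.10, 0.13 and -0.03.

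The 5 kinesins of the cilium and axoneme were all tested and none was called in any of the 3 fits. Their log2 differences ran from -0.38 to 0.39, with 2 negative and 3 positive and a median of 0.15. Kif7, which acts at the tip of the primary cilium in Hedgehog signalling, read 197, 195, 174 and 290.1 in wild-type replicates 1 to 4 and 306, 305, 278 and 234 in mutants. Mutant replicates 3 and 4 lay below wild-type replicate 4, which stood above the other wild types. The log2 difference was 0.39 (limma, adjusted p = 0.602). Its relative Kif27 read 333, 722, 839.9 and 726 in wild type and 361, 281, 738 and 659.6 in mutants, a log2 difference of -0.38 (limma, adjusted p = 0.934). Low values of Kif27 came from wild-type replicate 1 and mutant replicates 1 and 2. Kif6, a motile cilium kinesin, had a log2 difference of 0.38, Kif24, which restrains cilium growth at the mother centriole, 0.15, and Kif9, a kinesin of the sperm flagellum's central apparatus, -0.21.

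Of the 4 other members, Kif26a and Kif26b were tested and Kif12 and Kif28 were too dim, with wild-type means of 39.4 and 7.96. Kif26b, a kinesin of kidney development, read 155, 97.2, 117 and 104 in wild-type replicates 1 to 4 and 134, 152, 199 and 251 in mutants. Its groups overlapped through wild-type replicate 1, and the log2 difference was 0.56 (limma, adjusted p = 0.455). With arrays weighted by quality its difference was 0.80 with an adjusted p of 0.0355 (limma). This was the 1 of 28 alternative settings that called Kif26b. That fit called 697 of all genes, where the fit without weights or a block called 39. Kif26a, which lacks motor activity and acts in enteric nerve development, read 21.6, 137, 108 and 176 in wild type and 151, 180.1, 159.9 and 133 in mutants. Its log2 difference of 0.66 (limma, adjusted p = 0.834) was uneven, with 1.26 from replicates 1 and 2 alone and 0.07 from replicates 3 and 4 alone. Wild-type replicate 1 lay far below every other mouse, and without it the difference was 0.15.

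Probe sets of the same kinesin often differed from each other. Of the 33 tested members 17 had more than 1 kept probe set, and in 8 of them the log2 differences between genotypes had both signs (Kif2c, Kif23, Kif1b, Kif3a, Kif3b, Kif5b, Kif13a and Kif16b). Over the 71 kept probe sets of members 0 passed without a block, 2 with the replicate block (1 of Kif2c and 1 of Kif17) and 1 with the split block, where of all 27022 kept probe sets 30, 630 and 477 passed. The kept probe sets of Kif17 were all negative, and so were those of Kif2a.

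**Figure D4:**
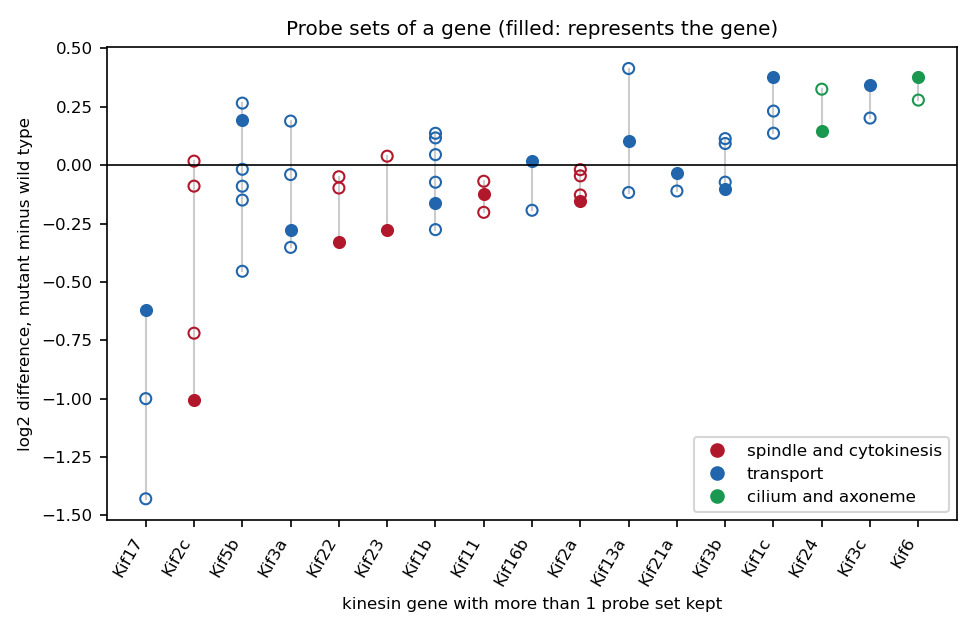
Log2 difference of mutant minus wild type (y axis) for each kept probe set of the 17 kinesins with more than 1 (x axis, ordered by their lowest value); filled points represent the gene and colours give the role. The 3 Kif17 probe sets lie at -0.62, -1.001 and -1.43, whereas those of Kif2c spread from -1.005 to 0.02.

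More kinesins differed between the replicate numbers than between the genotypes. Between replicates 3 and 4 and replicates 1 and 2, with genotype in the fit, 13 of 33 members passed (39.4%, beside 42.5% of all genes; limma). Of these 11 were higher in replicates 3 and 4 (33.3%, beside 22.2%) and 2 were lower (6.06%, beside 20.3%). The labels give no reason for the split, and each side holds 2 mice of each genotype. The median shift was 0.51 in log2 units in spindle kinesins, with 5 called higher and 2 lower, 0.27 in transport kinesins with 5 called higher, and -0.03 in cilium kinesins with 1 called higher. The median shift of all genes was 0.01.

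Kif20b moved most: it read 245, 451, 158 and 241 in replicates 1 and 2 of wild type and then mutant, and 835, 1349.5, 1395 and 1268 in replicates 3 and 4. All values of replicates 3 and 4 lay above all of replicates 1 and 2, a 4.43-fold difference (log2 2.15, standard error 0.28; limma, adjusted p = 0.000777). Kif5b read 254, 384, 331 and 179.9 in replicates 1 and 2 and 1084, 858, 1427 and 1791 in replicates 3 and 4, a 4.30-fold difference (limma, adjusted p = 0.00069). Kif18a was 3.99-fold higher there (limma, adjusted p = 0.000644) and Kif11 2.01-fold higher (limma, adjusted p = 0.00698). For these genes the standard error of the genotype difference without a block was wide, 0.78 for Kif20b and 0.76 for Kif5b, beside 0.25 and 0.30 with the replicate block. Kif22 and Kif18b moved the other way, by -0.64 and -0.50 in log2 units (limma, adjusted p = 0.00344 and 0.0138).

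At their representing probe sets the kinesin-13 genes did not pass the test of the split. The log2 shift was 0.51 for Kif2b, -0.33 for Kif2c and 0.03 for Kif2a, (limma, adjusted p = 0.571, 0.191 and 0.816). Probe sets of Kif2a and Kif2c were nevertheless called in both directions: the other kept probe sets of Kif2a shifted by 0.29, 0.47 and -0.64, and those of Kif2c by -0.59, -0.72 and 0.92. Of these, only the shift of 0.29 was not called (limma, adjusted p = 0.0663). For Kif5b, 5 of 6 kept probe sets shifted by 1.02 to 2.42, and the sixth by 0.05. The other kept probe sets of Kif11 shifted by 0.97 and -0.06, and the latter was not called.

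**Figure D5:**
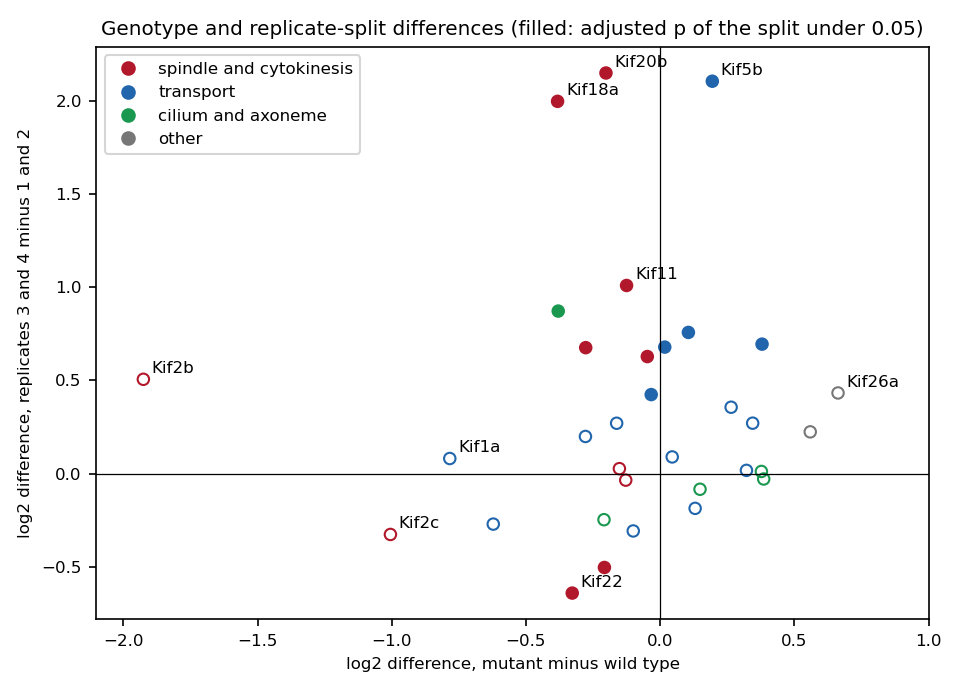
Each point is 1 of 33 kinesins: log2 difference of mutant minus wild type (x axis) against log2 difference of replicates 3 and 4 minus replicates 1 and 2 (y axis), filled where the latter passed an adjusted p of 0.05, coloured by role. Kif20b, Kif5b and Kif18a lie at about 2 on the y axis and near 0 on the x axis, and Kif2b and Kif2c lie far left with open points.

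A test of whether the genotype difference itself differed between both sides of the split called 0 members and 0 of all genes (limma, smallest adjusted p among members 0.738). At an unadjusted p under 0.05 there were 2 members, Kif1a and Kif5b (6.06%, beside 5.35% of all genes). With mutant replicate 2 left out 1 member was called, Kif2b, with a difference between both sides of 3.52 log2 units (limma, adjusted p = 0.0119), which is 3.03% of members beside 2.55% of all genes; mutant replicate 1 is then the lone mutant on its side and is assumed to vary like the others.

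Partners of the kinesins were read from lists of general knowledge. Of 13 cargo partners tested, 0 were called without a block and 2 were called lower with either block, Klc3 and Grip1. Among all genes, lower calls made up 3.12% under the replicate block and 2.16% under the split block (limma). The partners were listed with earlier results of these data known, so their count cannot be weighed against these shares. Klc3, a kinesin light chain known from spermatids, where it binds outer dense fibres and mitochondria of the growing tail, read 359.7, 455, 322 and 305 in the wild types. It read 78.3, 106, 164 and 155 in mutants, so the highest mutant lay well below the lowest wild type. The means were 360.3 ± 67.0 and 126 ± 40.6 (SD, n = 4 each), and the log2 difference was -1.44. The adjusted p was 0.0551 with no block, 0.0232 under the replicate block and 0.0218 under the split block (limma). Replicates 1 and 2 alone gave -1.97 in log2 units, and replicates 3 and 4 alone gave -0.91.

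Grip1, an adaptor that steers conventional kinesin in dendrites, read 253, 302, 276 and 244 in wild-type replicates 1 to 4 and 121, 142, 185 and 171 in mutants, without overlap. Its log2 difference was -0.75, with an adjusted p of 0.103 with no block, 0.0493 under the replicate block and 0.0424 under the split block (limma). Grip1 was called in 5 of 29 alternative settings, with log2 differences of -0.99 to -0.49 and adjusted p of 0.0323 to 0.473 (limma). It had 2 kept probe sets, and these values are of the one with the higher mean. The light chains Klc1 and Klc4 and Kifap3, the adaptor of Kif3a and Kif3b, had overlapping groups, and Klc1 and Kifap3 had log2 differences of 0.15 and 0.01. The median of the 13 cargo partners was 0.02.

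Among 5 kinesins with other names 0 were called in any of the 3 fits. Kifc3, a minus-end motor, read 925, 1006, 818 and 828 in wild-type replicates 1 to 4 and 872, 995, 529 and 677 in mutants, a log2 difference of -0.25. Kifc2 had 0.18, and its sign turned negative in several alternatives. Kifc1, which shapes the spermatid nucleus and focuses spindle poles, had 0.13, and Cenpe, the kinetochore motor, 0.05. Cenpe was 3.05 log2 units higher in replicates 3 and 4, a larger shift than in any member.

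Of 21 spindle partners 0 were called in any of the 3 fits, and their median log2 difference was 0.02, with 7 negative and 14 positive. Aurkc, the meiotic Aurora kinase, read 1669, 1653, 1595 and 1619 in wild-type replicates 1 to 4 and 2432, 2304, 1874 and 2003 in mutants, all above the wild types. It was the 1 spindle partner of 21 so placed, where 2.53% of all genes were. Its log2 difference was 0.39, and its adjusted p was 0.244 with no block, 0.102 under the replicate block and 0.0584 under the split block (limma). Plk1, a mitotic kinase that phosphorylates Kif2b and Kif2c among many targets, read 2611, 2489, 1858 and 1575 in wild type and 1811, 2632, 1221 and 1237 in mutants. Its log2 difference was -0.35 and its groups overlapped.

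Markers of spermatids differed in how many passed the test. Lower calls made up 0.268% of all genes with no block, 3.12% under the replicate block and 2.16% under the split block (limma). In mutants all 8 elongating spermatid markers had a negative log2 difference, with a median of -3.30. Of these markers 1 was called lower with no block, 8 under the replicate block and 6 under the split block (limma). Their summed intensity was 65795 to 119709 in wild type and 2794 to 20939 in mutants, and the lowest sum was that of mutant replicate 1, the mouse with the lowest Kif2b. For 7 round spermatid markers the median was -1.27 and the sums were 15458 to 22980 and 6077 to 13997, with 0 called with no block and 1, Tssk2, called lower with either block; the groups of Acr and Crem overlapped. Without mutant replicate 1 the medians were -2.65 for the elongating and -0.73 for the round spermatid markers. Markers of meiotic prophase (6 tested, median -0.11) and of the meiotic divisions (4 tested, median -0.12) had 0 called in any of the 3 fits. The same held for markers of spermatogonia, Sertoli, Leydig, peritubular and endothelial cells, macrophages and epididymis, with medians of -0.04 to 0.22. Every tested marker of spermatogonia (7), Sertoli cells (6), Leydig cells (4) and macrophages (4) had a positive log2 difference, where the median of all genes was 0.07. Markers of peritubular cells, endothelial cells and epididymis had both signs. Fewer cells of a type and less RNA per cell cannot be told apart in whole testis, and the part of the spermatid markers in the differences of Kif2b, Kif2c and Klc3 was not tested. The 4 measured epididymis markers summed to 108 to 213 in replicates 1 and 2 and to 30187 to 34463 in replicates 3 and 4. This held in both genotypes. Markers of germ cells also differed over the split. Of 6 meiotic prophase markers 5 were called higher in replicates 3 and 4 (limma, beside 22.2% of all genes). Their sums were 12123 to 13849 in replicates 1 and 2 and 17417 to 24277 in replicates 3 and 4. Of 4 meiotic division markers 3 were called lower (limma, beside 20.3% of all genes). Lists of spermatogonia and somatic cells also held called genes, and those of spermatids 0. The part of any of these markers in the split of the kinesins was not tested.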

How the data were processed

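Affymetrix arrays measured testis RNA of 8 mice, each on its own array. The deposited intensity values are linear and were made with GCOS according to the submitters' processing notes, in a version not given in the sources used here. Every deposited array has a trimmed mean of 500 (2% of probe sets removed at each end), medians of 90.7 to 124, and 154 to 218 values below 1. It holds no detection calls.

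Values were taken as log2(value + 16), so folds understate the change of dim genes. Of 45101 probe sets 64 were controls and left out, and 34945 had a single symbol, updated through Entrez identifiers for 34741. A filter kept the 27022 probe sets with a mean log2 value above the 40th percentile. Genotypes were compared with limma 3.58.1 in R 4.3.3 (lmFit, then eBayes with a trend in intensity; two-sided, Benjamini-Hochberg over all genes), with no block, and with the replicate number or the split of replicates as a block. P-values measure the spread between mice. Deviations of same-numbered mice from their genotype mean correlated (r from 0.515 to 0.677 in 4 pairs), which counts as pairing by rule. The source is the data, and 3 of 8 mice were closest to their own number. The split was not removed first and also makes same-numbered mice alike, so the correlation cannot tell pairing from the split. Kinesins named with all values had passed a fit, had groups without overlap, or had 1 of the 2 largest differences of their role. Partners outside this rule (Klc1, Klc4, Kifap3, Kifc1 and Cenpe) and the kinesins named for the split were chosen after their values were seen. Members, roles and lists were chosen with earlier results of these data known. The fit was first tested on simulated data. Promoter sequences are from RefSeq, and figures used matplotlib 3.10.9.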

Additional observations from a re-analysis of the deposited data

Results flagged for a closer look

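Within a genotype, 3 of 66 groups of 4 mice had 1 mouse far from the others, and about 1 in 20 groups would by chance. Kif2b read 133 in mutant replicate 1, below the other mutants. Kif27 read 333 in wild-type replicate 1, below the other wild types. Kif6 read 163 in wild-type replicate 2, above the other wild types.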

How the results depend on the processing

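The number of kinesins called between genotypes, 0 without a block, was 1 with the replicate block, 1 with the split block (Kif2c each time), 2 with array weights (Kif2c and Kif26b), and 0 to 2 as single mice were left out, with or without the split block; it was 2 (Kif2b and Kif2c) with the split block and without mutant replicate 1, a fit that called 630 genes in all. Of all genes 39 were called without a block, 475 with the replicate block, 363 with the split block, 0 within replicates 1 and 2, 23 and 94 with pseudocounts of 1 and 64, 22 with the filter at the 60th percentile and 697 with array weights. Leaving out single mice gave 0 to 630 over both kinds of fit: with no block it was 0 when mutant replicate 3 or any of wild-type replicates 1 to 3 was left out, 20 when mutant replicate 4 was, and 185 when mutant replicate 1 was. The median of cilium kinesins was -0.031 with the filter at the 60th percentile. The interaction gave 0 to 1 members as single mice were left out. Kifc2 reversed to -0.15 within replicates 3 and 4, to -0.063 with array weights, and ran from -0.26 to 0.75 as mice were left out. The spindle median stayed below 0 in all 29 alternatives (-0.42 to -0.07), as did spindle minus transport (-0.37 to -0.15). Kif2c was called in 6 of 29 alternatives (adjusted p 0.00609 to 0.329, limma), Kif2b in 1 (0.0045 to 0.752). The cause of these changes was not tested. With 4 arrays per genotype and no detection calls, small differences of dim kinesins could not be measured.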
